A study of Mus musculus with 6 samples.

Results

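The core circadian clock and output genes were examined as 10 genes in mouse liver, namely the activators *Arntl*, *Clock* and *Npas2*, the repressors *Cry1*, *Per2*, *Ciart* and *Nr1d1*, and the output factors *Dbp*, *Tef* and *Hlf*. They were picked by symbol, and each symbol matched 1 row of the 25403 genes listed. Bulk RNA-seq had been done on 3 livers of wild-type C57BL6/J mice (WT) and 3 livers of whole-body *Themis* knockout mice (*Themis*-KO), in which the gene is lost from T cells as well as from hepatocytes. All 6 livers came from mice given a diet for metabolic dysfunction–associated steatohepatitis (MASH), labelled AMYLIN liver NASH diet. It was eaten for 3 months from an age of 10 to 12 weeks. Fat made up 40% and fructose 20% of its energy, and cholesterol was added at 2%. Lights were on for 12 hours and off for 12 hours, and food was free. The study describes its whole-body knockout cohort on this diet as male, and elsewhere says that livers of both sexes served for expression analysis. No label gives the sex of the mouse or the hour of collection for a single liver, so every liver is described singly. The labels do not say whether replicates are separate animals or cohorts, and p-values measure the spread between these samples.

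The circadian clock of the liver is a loop of transcription and repression. ARNTL (also called BMAL1) pairs with CLOCK or NPAS2 and binds the E-box, from which it activates *Per*, *Cry*, *Ciart*, *Nr1d1* and the output genes, while PER and CRY proteins return to block it. NR1D1 (REV-ERBα) represses *Arntl*, *Npas2* and *Nfil3* through the REV-ERB response element, the RRE. DBP, TEF and HLF, the PAR bZIP factors, activate genes with a D-box, which NFIL3 represses. In livers of mice kept in light and dark, *Arntl* and *Npas2* mRNA are known to be highest around the end of the night, *Nr1d1* in the earlier part of the day, *Dbp*, *Tef*, *Hlf* and *Ciart* later in the day and *Per2* around nightfall, so the ratio of these mRNAs differs with the hour.

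These 3 elements were looked for in the RefSeq promoter windows of GRCm38.p6, from 250 bases before to 50 bases after each transcript start, as CACGTG for the E-box, TTANGTAA for the D-box and TAGGTCA or TGGGTCA for the RRE, on both strands and with no overlap between the elements found. Windows were at hand for 9 of the 10 members, 13 in all, and *Per2* was not in the table. The E-box was found in *Ciart*, *Cry1* and *Tef* (in both windows of *Tef*, of which 1 is shown), the D-box in none and the RRE in *Arntl*. Of the 18 other clock genes described further on, 13 had a window, with the E-box in *Per1* and *Bhlhe41*, the D-box in *Per3* and the RRE in *Nfil3*. Over all 32851 windows, 7.15% held an E-box, 2.32% a D-box and 6.45% an RRE. These are shares of windows, while members and other clock genes are counted by gene, some with more than 1 window, so the numbers are not directly comparable. The stretches below show the element of each limb of the loop, in capitals, for members and for *Per1*, *Per3* and *Nfil3* beside them. They are written 5′ to 3′ on the strand of the gene. The genes with an E-box took different courses across the livers, and a link between element and course was not tested. A match is a match of letters and not a site shown to be bound.
*Ciart*, 3 E-boxes, chr3:95882255-95882356, reverse strand: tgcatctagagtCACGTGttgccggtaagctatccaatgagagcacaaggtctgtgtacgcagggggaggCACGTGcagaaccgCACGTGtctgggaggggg
*Tef*, E-box, chr15:81811264-81811293, forward strand: cacctggcccagCACGTGtctacatcgttt
*Cry1*, E-box, chr10:85185097-85185126, reverse strand: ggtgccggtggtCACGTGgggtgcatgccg
*Per1*, E-box, chr11:69098771-69098800, forward strand: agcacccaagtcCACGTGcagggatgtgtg
*Per3*, 2 D-boxes, chr4:151044804-151044882, reverse strand: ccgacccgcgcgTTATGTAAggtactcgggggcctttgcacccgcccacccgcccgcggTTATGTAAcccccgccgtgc
*Arntl*, RRE just after the start, chr7:113207531-113207557, forward strand: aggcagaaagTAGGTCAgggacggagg
*Nfil3*, RRE read on the other strand, chr13:52981040-52981063, reverse strand: ggcgctcggaacTGACCTActaac

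The libraries held 20679642 to 25649767 estimated counts, and 14496 genes had enough counts to be tested. Levels are given as counts per 1e6 counts after TMM scaling (CPM), and values for single livers are in the order of replicates 1, 2 and 3 under each label. *Themis* did not separate the labels, with 8.07 to 25.6 CPM in the livers labelled WT and 7.74 to 9.97 CPM in those labelled *Themis*-KO (log2 fold change −0.79 with a standard error of 0.38; quasi-likelihood test of edgeR, adjusted p = 0.199), so livers are named by their labels and each direction rests on them. WT replicates 1 and 2 also differed from the other 4 livers in the mitochondrial gene *mt-Nd3* and the nuclear pseudogene *Gm28438*, the latter taking 96.6% and 96.8% of their joint CPM there and 2.2% to 3.26% elsewhere. The summed level of 10 hepatocyte markers was 63760 to 67410 CPM in livers labelled WT and 48990 to 54810 in livers labelled *Themis*-KO. Of the 10, 3 were called lower at an adjusted p under 0.05 by the same test, where 4.14% of all genes tested were. Most of the hepatocyte sum was *Alb*, at 39780 to 43020 against 33600 to 37330 CPM. *Cps1*, *Pck1*, *Hnf4a* and *Tat* overlapped between the labels. Sums were also taken for the other types among 48 markers of 7 cell types. Cholangiocytes had 152.9 to 192.6 against 386.8 to 614.6 CPM for 6 genes and hepatic stellate cells 359.6 to 407.2 against 518.2 to 528.4 for 8. Macrophages had 317.4 to 523.3 against 554.3 to 720.6 for 8 and endothelial cells 184.2 to 201.8 against 206.3 to 227 for 6. All these sums were higher without overlap, and 2, 4, 3 and 1 of the markers were called higher (4.97% of all genes tested). Most of the cholangiocyte sum was *Spp1*, at 136.8 to 180.1 against 366.3 to 570.6 CPM. *Krt19* and *Sox9* overlapped between the labels, and the other cholangiocyte markers did not. Overlap was also seen for the stellate cell markers *Lrat*, *Des* and *Reln* and the macrophage markers *Adgre1*, *Clec4f* and *Lyz2*. Of the endothelial markers, *Stab2*, *Cdh5*, *Clec4g* and *Kdr* overlapped, the last 2 with negative log2 fold changes of −0.17 and −0.13. T cells had 3.26 to 4.58 against 2.495 to 5.31 CPM for 6 genes, with 1 called lower, and B cells 2.34 to 5.57 against 1.59 to 4.91 for 4. No marker was at 0 in every liver. Clock genes are active in all these cells, fewer cells of a type and less RNA per cell cannot be told apart in whole tissue, and the part of cell composition in the values below was not tested.

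With all 6 livers, 0 of the 9 members tested passed an adjusted p under 0.05 by edgeR's quasi-likelihood test, 0 higher and 0 lower, against 9.11% of all genes tested, 4.97% higher and 4.14% lower, while 1 of the 9, *Tef*, had an unadjusted p under 0.05 (30.7% of all genes). DESeq2 called 1 member, *Tef*, lower, where it called 16.3% of all genes, 7.48% lower. *Npas2* had too few counts to be tested. The livers labelled *Themis*-KO differed among themselves. In replicate 3 *Arntl* was at its lowest and *Per2* and *Ciart* at their highest of the 6 livers, while in replicates 1 and 2 *Arntl* was above and *Per2* and *Ciart* were below every liver labelled WT.

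**Figure D1:**
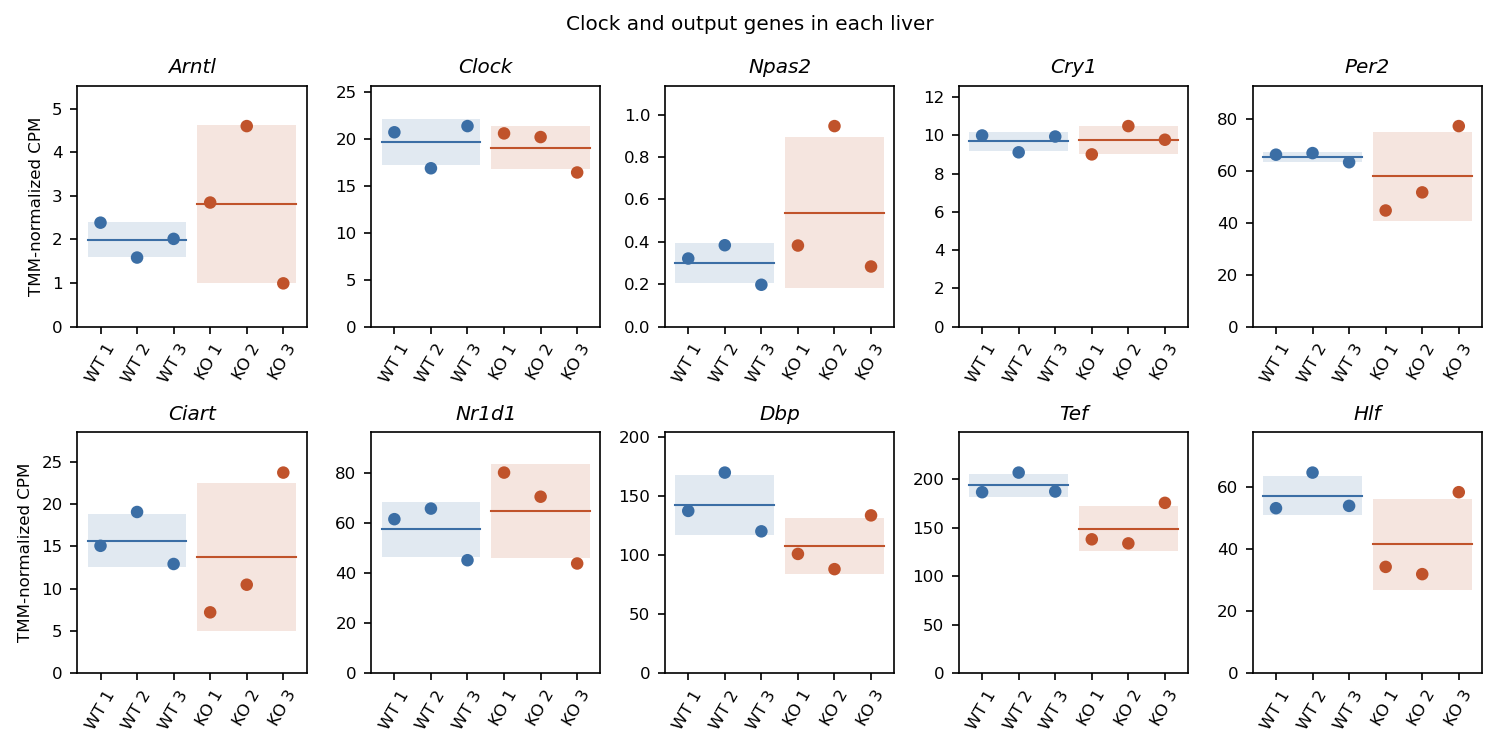
TMM-normalized CPM (y axis, linear from 0) of the 10 members in each liver (x axis; KO stands for livers labelled *Themis*-KO); points are single livers, lines the mean and bands the SD of 3 livers. *Arntl* spans 0.992 to 4.60 CPM within the livers labelled *Themis*-KO, and *Ciart* 7.18 to 23.7 in the other order.

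*Arntl* (ENSMUSG00000055116, chr7:113207465-113314126, forward strand) encodes the activator without which the loop stops. Its level was 2.39, 1.58 and 2.01 CPM under the WT label and 2.85, 4.60 and 0.992 CPM under the *Themis*-KO label. The livers labelled *Themis*-KO thus held both the highest level and the lowest, on either side of all 3 livers labelled WT, and rested on 107 and 21 counts. The log2 fold change was 0.50 (standard error 0.475, 95% interval −0.60 to 1.60, adjusted p = 0.499). *Npas2* (ENSMUSG00000026077, chr1:39193731-39363236, forward strand), which can stand in for *Clock*, had 7, 8 and 5 counts under the WT label and 9, 22 and 6 under the *Themis*-KO label. Its highest liver was the one in which *Arntl* was highest, at counts that leave the order of the others undecided. *Clock* (ENSMUSG00000029238, chr5:76209868-76304792, reverse strand), the partner of ARNTL, is known to oscillate weakly. It had 20.7, 16.9 and 21.4 CPM under the WT label and 20.6, 20.2 and 16.4 CPM under the *Themis*-KO label. The 2 groups covered nearly the same range, with a log2 fold change of −0.04 (standard error 0.133, 95% interval −0.35 to 0.26, adjusted p = 0.843), which was 0.09 with scaling by total counts.

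*Cry1* (ENSMUSG00000020038, chr10:85131700-85185064, reverse strand) encodes a repressor of ARNTL and CLOCK. It was the steadiest member, with 10.0, 9.12 and 9.94 CPM under the WT label and 9.01, 10.5 and 9.78 CPM under the *Themis*-KO label. Its log2 fold change was 0.01 with all 6 livers (standard error 0.118, 95% interval −0.26 to 0.28, adjusted p = 0.96), and was below 0 with no filter on low counts and with DESeq2. *Per2* (ENSMUSG00000055866, chr1:91415982-91459324, reverse strand), the partner of CRY1 in repression, had 66.3, 66.9 and 63.4 CPM under the WT label, a span of 1.06-fold. The livers labelled *Themis*-KO had 44.8, 51.8 and 77.4 CPM in replicates 1, 2 and 3 and lay on both sides of that narrow range. The log2 fold change was −0.18 (standard error 0.186, 95% interval −0.61 to 0.25, adjusted p = 0.542). *Ciart* (ENSMUSG00000038550, chr3:95878503-95882251, reverse strand), also called CHRONO, represses the ARNTL complex and carried 3 E-boxes in its window. Its level was 15.1, 19.1 and 12.9 CPM under the WT label and 7.18, 10.5 and 23.7 CPM under the *Themis*-KO label. As for *Per2*, replicates 1 and 2 of the livers labelled *Themis*-KO were below every liver labelled WT and replicate 3 was above them, and the log2 fold change was −0.19 (standard error 0.396, 95% interval −1.11 to 0.73, adjusted p = 0.774).

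*Nr1d1* (ENSMUSG00000020889, chr11:98767932-98775333, reverse strand) encodes the heme receptor that represses *Arntl*. Its level was 61.6, 65.8 and 45.1 CPM under the WT label and 80.2, 70.5 and 43.8 CPM under the *Themis*-KO label. Here the order within the livers labelled *Themis*-KO was the reverse of that of *Per2* and *Ciart*, with replicate 3 the lowest of all 6 and replicate 1 the highest. The log2 fold change was 0.175 (standard error 0.229, 95% interval −0.36 to 0.71, adjusted p = 0.633). Exons of *Nr1d1* share 263 bases with *Thra* on the opposite strand, those of *Dbp* 539 with *Sphk2* and those of *Tef* 193 with *Gm17597*, and without a statement that counting used the strand these reads cannot be told apart.

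The PAR bZIP genes had the lowest log2 fold changes of the members, −0.47 to −0.38, and none had an adjusted p under 0.05. *Tef* (ENSMUSG00000022389, chr15:81802421-81826863, forward strand) had 187, 207 and 187 CPM under the WT label and 138, 134 and 176 CPM under the *Themis*-KO label. It was the single member whose groups did not overlap, where 34.6% of all genes tested had no overlap and 16.9% were lower without overlap. Its log2 fold change was −0.38 (standard error 0.121, adjusted p = 0.0848; exact two-sided permutation test, p = 0.1). *Dbp* (ENSMUSG00000059824, chr7:45705088-45710203, forward strand), a direct reader of ARNTL activity with a wide daily swing, had 137, 170 and 120 CPM under the WT label. The livers labelled *Themis*-KO had 101, 87.9 and 133 CPM in replicates 1, 2 and 3, of which the last lay among those labelled WT. The log2 fold change of *Dbp* was −0.41 (standard error 0.18, 95% interval −0.82 to 0.01, adjusted p = 0.171). *Hlf* (ENSMUSG00000003949, chr11:90336536-90390895, reverse strand) had 53.1, 64.6 and 53.9 CPM under the WT label and 34.2, 31.9 and 58.3 CPM under the *Themis*-KO label. Again replicates 1 and 2 were below and replicate 3 was among the livers labelled WT, and the log2 fold change was −0.465 (standard error 0.223, 95% interval −0.98 to 0.05, adjusted p = 0.198). The median log2 fold change of the 9 members tested was −0.18, with 6 negative and 3 positive, beside 0.0095 over all genes tested.

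The ratio of the counts of a pair of members within a liver does not depend on how libraries are scaled. These ratios were chosen after the values were seen and are a description, and their 95% intervals (exact binomial) cover counting error alone. The ratio of *Ciart* to *Arntl* counts was 6.31 (4.70 to 8.62), 12.0 (8.43 to 17.7) and 6.41 (4.76 to 8.79) under the WT label. It was 2.52 (1.89 to 3.40) and 2.27 (1.80 to 2.88) in *Themis*-KO replicates 1 and 2 and 23.9 (15.5 to 39) in *Themis*-KO replicate 3. The livers with that label thus lay at both ends, with intervals clear of WT replicates 1 and 3 on either side. The ratio of *Per2* to *Nr1d1* counts was 1.08, 1.02 and 1.40 under the WT label and 0.559, 0.734 and 1.77 under the *Themis*-KO label. That of *Dbp* to *Nr1d1* was 2.23, 2.58 and 2.66 under the WT label and 1.26, 1.25 and 3.04 under the *Themis*-KO label. In all 3 ratios *Themis*-KO replicates 1 and 2 were the lowest of the 6 livers and replicate 3 the highest. By contrast *Dbp* to *Tef*, members of the same arm, ran from 0.657 to 0.76 in the livers labelled *Themis*-KO and from 0.641 to 0.82 in those labelled WT.

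**Figure D2:**
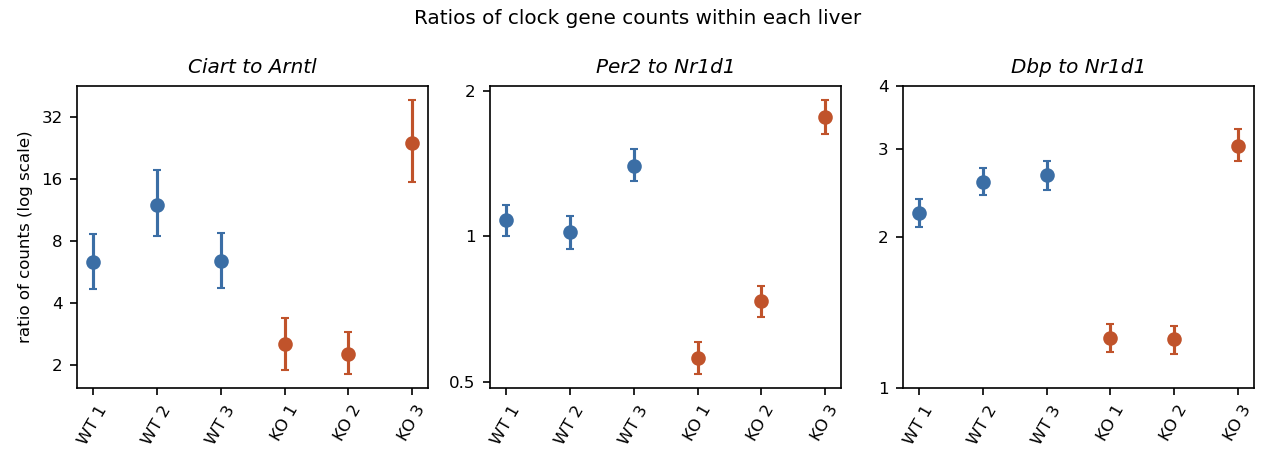
Ratio of the counts of 2 clock genes within each liver (y axis, log scale; bars are exact binomial 95% intervals) for the 6 livers (x axis; KO stands for livers labelled *Themis*-KO). In each panel *Themis*-KO replicates 1 and 2 lie lowest and replicate 3 highest, at 2.52, 2.27 and 23.9 for *Ciart* to *Arntl*.

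The spread within a label was accordingly wider for the livers labelled *Themis*-KO. The SD of log2 CPM had a median over the 10 members of 0.22 in livers labelled WT and 0.43 in livers labelled *Themis*-KO, beside 0.15 and 0.18 over all genes tested. For *Per2* it went from 0.04 to 0.41, for *Arntl* from 0.28 to 1.08 and for *Ciart* from 0.28 to 0.88. In livers labelled WT, the SDs of *Arntl* and *Ciart* were above those of 77.6% and 77.3% of the genes tested. In livers labelled *Themis*-KO they were above 99% and 98%, although the counts of *Arntl* are low and add counting error. There the share was 88.5% for *Hlf*, 87.5% for *Nr1d1*, 84.2% for *Per2*, 73.8% for *Dbp* and 58.2% for *Tef*. *Cry1* and *Clock* had SDs of 0.11 and 0.18 in the same livers, at or below the middle of all genes.

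Leaving out each liver in turn showed how far the comparison rested on that liver. Without *Themis*-KO replicate 3, *Arntl* was higher and *Per2*, *Ciart*, *Dbp*, *Tef* and *Hlf* were lower at an adjusted p under 0.05, or 6 of 9 members, where 28.8% of all genes tested passed, 15% higher and 13.8% lower. The log2 fold changes were then 0.88 for *Arntl* (adjusted p = 0.049), −0.46 for *Per2* (0.0102), −0.84 for *Ciart* (0.0263), −0.61 for *Dbp* (0.0244), −0.53 for *Tef* (0.00715) and −0.81 for *Hlf* (0.00333). *Nr1d1* reached 0.38 in that fit without passing. The share of genes called also rose over the whole table, from 9.11%, so the dependence on this liver was not one of the clock genes alone. Leaving out any of the other 5 livers left 0 of 9 members past the threshold, where 0.136% to 5.73% of all genes tested passed. Without *Themis*-KO replicate 2 the log2 fold change of *Arntl* was −0.06. With the mitochondrial split of the livers as a term, 0 of 9 members and 3 genes in all passed. WT replicates 1 and 2 are alone on their side of the split. The label difference in that fit thus rests on WT replicate 3 against the livers labelled *Themis*-KO. It cannot tell the split from the label.

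**Figure D3:**
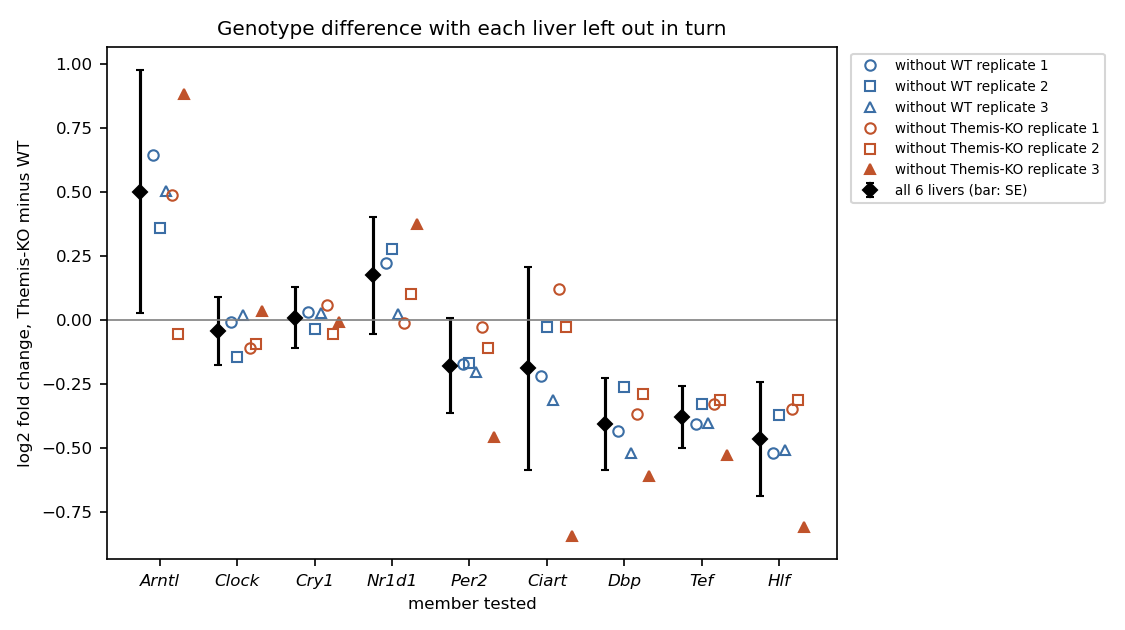
Log2 fold change, livers labelled *Themis*-KO minus WT (y axis), of the 9 members tested (x axis) with all 6 livers (black, bars are SE) and with each liver left out in turn (symbols). The filled symbols, without *Themis*-KO replicate 3, lie farthest from 0 for *Arntl*, at 0.88, and for *Per2*, *Ciart*, *Dbp*, *Tef* and *Hlf*, at −0.84 to −0.46.

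Of 18 other genes of the clock pathway, all tested, 0 passed with all 6 livers by edgeR's quasi-likelihood test, 5 had an unadjusted p under 0.05 (30.7% of all genes) and DESeq2 called 2 (16.3% of all genes). Without *Themis*-KO replicate 3 the number was 8, where 28.8% of all genes passed. *Nfil3*, the D-box repressor that shares the RRE with *Arntl*, had 14.6, 9.45 and 9.94 CPM under the WT label and 17.0, 15.5 and 6.14 CPM under the *Themis*-KO label. The order of the livers labelled *Themis*-KO was that of *Nr1d1*, with replicate 3 the lowest. *Per3*, with 2 D-boxes, had 43.9, 59.3 and 44.6 CPM under the WT label and 26.7, 26.7 and 45.8 CPM under the *Themis*-KO label, at a log2 fold change of −0.58 (standard error 0.227, adjusted p = 0.135). *Usp2*, a deubiquitinase gene under clock control that was named after its values were seen, followed the course of *Per3*, with 42.1, 54.6 and 42.0 CPM under the WT label and 18.6, 22.2 and 47.7 CPM under the *Themis*-KO label.

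*Per1* did not follow *Per2*. It had 40.8, 44.5 and 42.2 CPM under the WT label and 46.2, 55.8 and 67.5 CPM under the *Themis*-KO label, above every liver labelled WT (log2 fold change 0.41, standard error 0.136, adjusted p = 0.0903). *Per1* is known to answer quickly to glucocorticoids and other signals besides the clock. *Bhlhe40*, a repressor at E-boxes that is also stress-inducible, had 107 to 143 CPM in livers labelled WT and 219, 182 and 119 CPM under the *Themis*-KO label (adjusted p = 0.176), and its relative *Bhlhe41* had 6.95 to 12.7 and 4.30 to 12.1 CPM (adjusted p = 0.714). *Cry2*, *Nr1d2* and *Rora* varied less, with ranges over all 6 livers of 29.8 to 42.6, 87.9 to 105 and 44.0 to 51.8 CPM. Their adjusted p were 0.32, 0.918 and 0.825. *Cry2* was just lower without overlap, at 37.3 to 42.6 CPM under the WT label and 29.8 to 37.2 under the *Themis*-KO label. Of the 18 genes, 2 were higher, *Per1* included, and 2 lower without overlap, where 17.7% and 16.9% of all genes tested were. The heatmap of the clock pathway sets other genes of the pathway under the members.

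**Figure D4:**
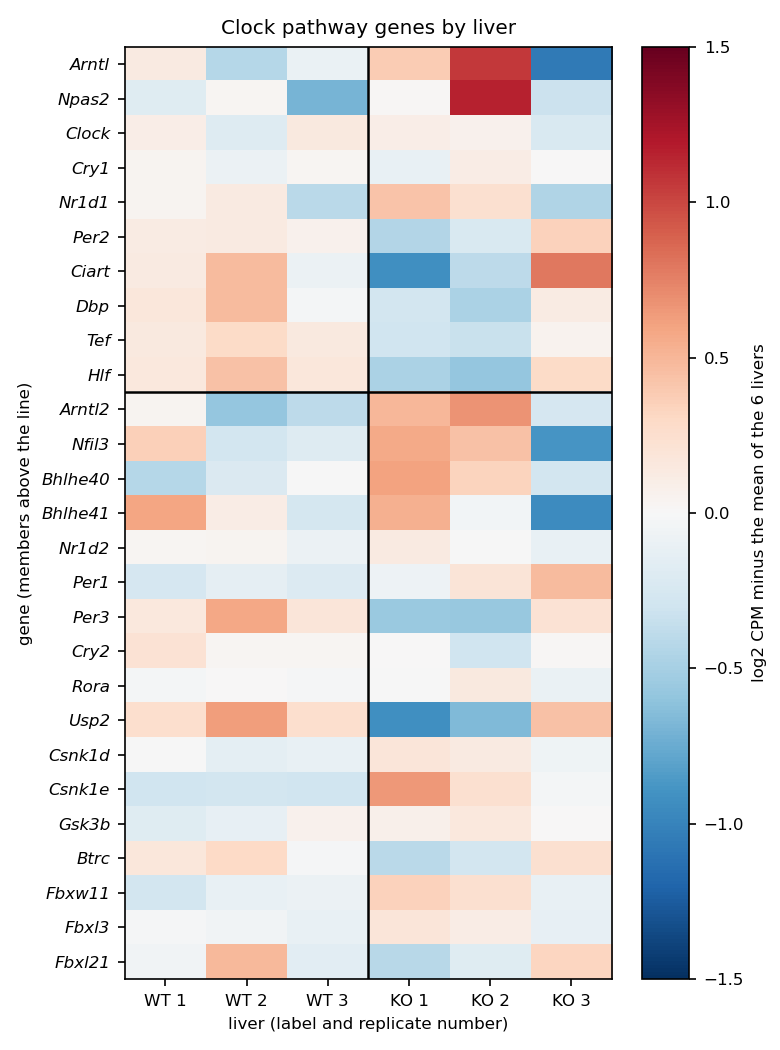
Log2 CPM of each gene minus its mean over the 6 livers (colour, red higher and blue lower, limits at 1.5), with members above the horizontal line and other clock genes under it; columns are livers, and KO stands for livers labelled *Themis*-KO. *Themis*-KO replicates 1 and 2 are red for *Arntl*, *Nr1d1* and *Nfil3* and blue for *Ciart*, *Hlf*, *Per3* and *Usp2*, and replicate 3 has the opposite colours.

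Genes downstream of the clock were listed as 20 clock-controlled liver genes, of which 3 were lower and 0 higher at an adjusted p under 0.05 (4.14% and 4.97% of all genes tested), with a median log2 fold change of −6e-04. *Por*, which encodes the reductase that feeds electrons to cytochrome P450 enzymes and is a known target of PAR bZIP factors, had 663, 552 and 541 CPM under the WT label and 380, 445 and 389 CPM under the *Themis*-KO label. It was lower in every liver labelled *Themis*-KO, replicate 3 included (log2 fold change −0.53, standard error 0.115, adjusted p = 0.0367). *Gys2*, the liver glycogen synthase gene, had 301, 321 and 316 CPM under the WT label and 219, 220 and 265 CPM under the *Themis*-KO label (log2 fold change −0.41, standard error 0.101, adjusted p = 0.0459). *Nr0b2*, which encodes the corepressor SHP, had 18.7, 26.4 and 24.2 CPM under the WT label and 11.4, 15.1 and 15.1 CPM under the *Themis*-KO label (log2 fold change −0.73, standard error 0.166, adjusted p = 0.0397). With the replicate number as a block in edgeR's quasi-likelihood test, the adjusted p was 0.113 for *Por*, 0.123 for *Gys2* and 0.0643 for *Nr0b2*. None of the 3 passed, where 0.428% of all genes tested did. Each passed in no more than 2 of the 6 fits that left out a liver. The share of all genes passing was 28.8% without *Themis*-KO replicate 3 and 0.136% to 5.73% in the others. *Cyp7a1*, the rate-limiting enzyme of bile acid synthesis and strongly rhythmic, was named after its values were seen. It had 61.6, 166 and 85.0 CPM under the WT label and 11.6, 9.33 and 75.8 CPM under the *Themis*-KO label, so that replicate 3 again lay with the livers labelled WT (log2 fold change −1.70, standard error 0.779, adjusted p = 0.183).

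Body temperature, glucocorticoids and feeding also reach liver clock genes, and 22 genes that answer to them were listed, of which 2 were higher and 0 lower, with a median log2 fold change of 0.13. This was near the share over all genes tested, 9.11% in either direction and 4.97% higher. *Hspa1b*, an inducible heat shock gene that shares reads with its near-identical neighbour *Hspa1a*, had 19.5, 16.5 and 23.4 CPM under the WT label and 87.3, 68.5 and 29.7 CPM under the *Themis*-KO label (log2 fold change 1.64, standard error 0.354, adjusted p = 0.0367, and 0.0976 with the replicate block). *Dusp1*, a phosphatase gene induced by glucocorticoids and stress, had 22.3, 23.7 and 37.7 CPM under the WT label and 60.3, 55.4 and 62.8 CPM under the *Themis*-KO label (log2 fold change 1.09, standard error 0.193, adjusted p = 0.0249, and 0.0509 with the block). For *Hspa1b* replicate 3 lay nearest to the livers labelled WT, and for *Dusp1* the 3 livers labelled *Themis*-KO stood together. *Tsc22d3*, a glucocorticoid-induced gene named after its values were seen, had 57.8, 82.3 and 63.3 CPM under the WT label and 26.0, 50.5 and 134 CPM under the *Themis*-KO label. *Pdk4*, a fasting-induced kinase gene named in the same way, had 13.7, 11.0 and 21.7 CPM under the WT label and 149, 85.3 and 17.2 CPM under the *Themis*-KO label. Other genes of these roles took other courses. *Pck1*, a gluconeogenic gene induced by fasting, had 2192, 1854 and 2119 CPM under the WT label and 1113, 1616 and 1937 CPM under the *Themis*-KO label, lowest in the liver in which *Pdk4* was highest. *Angptl4*, also induced by fasting, had 154 to 180 CPM under the WT label and 164 to 202 CPM under the *Themis*-KO label, and *Klf9*, a glucocorticoid-responsive gene, 107 to 156 and 90.2 to 115 CPM. *Pck1*, *Angptl4* and *Klf9* were likewise named after their values were seen. The 22 genes thus had no common order of livers, and the part of collection time, feeding state or glucocorticoids in the clock values was not tested.

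The genes nearest to *Arntl* and *Dbp* were found by the root mean square difference of centred log2 CPM over the 6 livers, among 13042 genes. Nearest to *Arntl* were the histone gene *H2bc6* at 0.17, *Slc25a30*, a mitochondrial carrier gene, at 0.20, *9030616G12Rik* at 0.22, *Gm20634* at 0.22 and the sialyltransferase gene *St3gal1* at 0.26. *Slc25a30* had 88.9, 74.4 and 70.8 CPM under the WT label and 148, 178 and 46.2 CPM under the *Themis*-KO label, the same order within that label as *Arntl* at a far higher count. The nearest clock gene was *Nfil3*, at rank 11 with 0.30, and *Arntl2* at rank 88, whereas *Ciart* at rank 12814 and *Usp2* at 12830 were among the farthest. Nearest to *Dbp* were *Tmem220* at 0.046, *Nfib*, a transcription factor gene, at 0.054, *Prnp*, the prion protein gene, at 0.061, *Enpp5* at 0.062 and *Ebpl* at 0.063. *Tef* stood at rank 205 from *Dbp*, *Btrc* at 280, *Hlf* at 390 and *Per3* at 594, and *Arntl* at 12641.

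Per kilobase of merged exon, the order of the members in livers labelled WT was *Dbp* at 47.5 ± 8.43 CPM per kb (SD, n = 3), *Tef* at 24.6 ± 1.46, *Nr1d1* at 18.7 ± 3.54, *Per2* at 11.2 ± 0.322, *Hlf* at 8.56 ± 0.961, *Ciart* at 6.93 ± 1.38, *Cry1* at 2.90 ± 0.148, *Clock* at 1.43 ± 0.177, *Arntl* at 0.265 ± 0.0533 and *Npas2* at 0.0628 ± 0.0198. *Hlf* and *Ciart* were the neighbours in this order whose livers overlapped. In livers labelled *Themis*-KO, *Nr1d1* at 21.1 ± 6.12 and *Tef* at 18.9 ± 2.92 overlapped as well, as did *Per2* with *Hlf*, *Hlf* with *Ciart*, and *Arntl* with *Npas2*. *Dbp*, *Tef* and *Nr1d1* were thus the most abundant members and the activators the scarcest under both labels.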

How the data were processed

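Total RNA from 3 WT and 3 *Themis*-KO frozen livers was made into poly(A) libraries and sequenced as paired ends by the authors. Per the submitters' processing notes and the methods, the tools were cutadapt 2.3, STAR 2.7.8a and RSEM 1.3.3, on GRCm38; the annotation release is not given in the sources used here. The deposited values are estimated counts per gene and liver, given as whole numbers and not normalized. RSEM divides reads shared by several genes among them. Groups came from the sample titles, and members were matched by gene symbol.

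The whole-number counts went into edgeR 4.0.16 as deposited, run under R 4.3.3. The filterByExpr function kept 14496 of 25403 genes, libraries were scaled by TMM, and the labels were compared with the quasi-likelihood test on all 6 livers, with Benjamini-Hochberg adjustment over the genes tested and a threshold of 0.05. DESeq2 1.42.0 was an alternative, besides RLE, upper quartile and total count scaling, other filters, a replicate block, a mitochondrial term, each liver left out and a 2-fold threshold. CPM carry no prior count, and centred log2 CPM use a prior count of 2. Exact two-sided permutation tests of 3 livers against 3 cannot go below p = 0.1. The fits were tested on simulated data. Positions came from GENCODE vM21, which held 25353 of the listed genes, and promoter windows from RefSeq on GRCm38.p6.

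The members and the gene lists were chosen with earlier results of these data known. The genes named were the 10 members, further clock genes chosen by name, of which 1 is not reported here, every gene of the other lists with an adjusted p under 0.05, and for *Arntl* and *Dbp* the 5 tested genes with a mean CPM of at least 1 and the smallest root mean square difference in centred log2 CPM. The study describes its bulk RNA-seq livers as pairs of WT and *Themis*-KO. Nothing in the sources says which livers form a pair or what a shared replicate number means. The deviations of same-numbered livers from their group means had correlations of 0, −0.241 and −0.157, so the numbers were not taken as pairs.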

Additional observations from a re-analysis of the deposited data

How the results depend on the processing

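Counts on the estimated reads limit *Npas2* (5 to 22 per liver) and *Arntl* (21 to 107), and 3 livers per label limit every test. Under RLE, upper quartile scaling and at least 10 counts in every liver, each count of calls stayed within 1.5 times its value. With all 6 livers, members called lower numbered 1 with DESeq2 and 0 under the other alternatives. Other clock genes called numbered 2 with DESeq2, with no filter and with total counts alone. Clock output genes called numbered 7 with DESeq2 and with no filter, 1 with total counts alone, and 0 with the replicate block, the mitochondrial term and the 2-fold threshold. Genes of temperature, glucocorticoids and feeding numbered 7, 6 and 5 with DESeq2, no filter and total counts alone, and 0 with the block and with the mitochondrial term. Of all genes tested, 16.3% were called with DESeq2, 8.58% with no filter and 12.7% with total counts alone. All genes called, 1321 (721 higher, 600 lower), became 2357 with DESeq2, 2179 with no filter, 62 with the block, 3 with the mitochondrial term and 431 at 2-fold. Total counts alone gave 1449 higher and 387 lower and moved the median log2 fold change from 0.0095 to 0.15. When single livers were omitted, all genes called had a lowest number of 20, *Themis*-KO replicate 1 being omitted, and a highest of 4267, replicate 3 being omitted. The other counts ran from 0 to 1 of 9 for members higher and 0 to 5 of 9 for members lower. They ran from 0 to 8 of 18 for other clock genes, 0 to 12 of 20 for clock output genes and 0 to 9 of 22 for the last list. Each was highest without *Themis*-KO replicate 3, where 28.8% of all genes tested passed. Fewer samples were fitted in each of these, and the cause of the other shifts was not tested. With the mitochondrial term the label difference rests on a single liver labelled WT, replicate 3, so its counts cannot tell the split from the label.

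With a liver left out, *Arntl* ran from −0.0552 to 0.88, *Clock* from −0.14 to 0.0364, *Cry1* from −0.0521 to 0.0606, *Ciart* from −0.84 to 0.12, *Nr1d1* from −0.0121 to 0.38, *Nr1d2* from −0.0567 to 0.0581, *Bhlhe41* from −0.62 to 0.0733, *Nfil3* from −0.07 to 0.50, *Rora* from −0.0426 to 0.069 and *Tsc22d3* from −0.84 to 0.44. *Clock* was 0.0946 with total counts alone. *Cry1* was −0.0021 with no filter, −3e-04 with DESeq2 and −0.0271 with the mitochondrial term, under which *Ciart* was 0.0905 and *Bhlhe41* 0.24. *Tsc22d3* was −0.27 with the replicate block. The same-numbered livers did not deviate together. The block left 0 members and 0 other clock genes called, where 0.428% of all genes tested were called. It changed the calls named in the report, and no member's call.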
